A study of Mus musculus with 80 samples.

Results

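10 genes of fatty acid synthesis and desaturation were described in the mouse left ventricle. They are the regulator Srebf1, the precursor and NADPH enzymes Acly and Me1, the carboxylases Acaca and Acacb, the synthase Fasn, the elongase Elovl6 and the desaturases Scd1, Scd2 and Scd4. The members were taken by name from the raw count table, as 10 of its 56941 genes, and all 10 passed the filter on low counts that left 15879 genes for testing.

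The libraries came from C57Bl/6J left ventricular tissue and formed 8 groups of 10, with 4 conditions in each sex. The conditions were a Western diet without irradiation (0 cGy), a normal diet with a field labelled only as Mix at 50 cGy (called the mixed field), a normal diet with gamma radiation at 100 cGy, and a normal diet without irradiation (0 cGy, called sham). The centigray (cGy) is a unit of absorbed dose. All mice shared the strain, and no transgene or deletion is named; neither ages, nor intervals since exposure, nor the hour at which hearts were taken are in the labels, which also do not say that libraries came from separate animals. Library titles carry the numbers 1-20 or 21-40 within each sex, each range holding 5 libraries of every group, and are not explained by the labels. All p-values below are therefore set against library-to-library spread, part of which may be technical.

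New fatty acids are built in the cytosol from citrate. Acly splits citrate into acetyl-CoA, the carboxylases turn acetyl-CoA into malonyl-CoA, and Fasn condenses malonyl-CoA into palmitate with NADPH, part of which comes from the malic enzyme Me1. Elovl6 lengthens palmitate, and the stearoyl-CoA desaturases insert the double bond that makes palmitoleate and oleate. Srebf1 encodes the sterol regulatory element binding protein that drives many of these genes in liver and fat. The heart makes few fatty acids and burns many: its main carboxylase, Acacb, sits at the mitochondrial outer membrane, where malonyl-CoA inhibits carnitine palmitoyltransferase and so restrains fatty acid import.

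Library totals ranged from 13484776 to 22143504 counts. Levels are given as CPM, counts divided by library size and multiplied to a common total, scaled by the trimmed mean of M values (TMM), and levels of different genes are compared per kilobase of the canonical transcript. Myh6, the cardiac alpha myosin heavy chain, averaged 25500 CPM over the 80 libraries, and the summed 8 cardiomyocyte markers lay between 42300 and 70400 CPM. Markers of other tissue differed by sex: the summed 5 atrial markers ran from 6.68 to 1900 CPM in males (median 45.6) and from 2.84 to 27.4 CPM in females (median 7.91). The 9 adipocyte markers summed to 31.8 to 80.2 CPM in males and to 33.4 to 61.9 CPM in females, most of it Lipe, which cardiac muscle also expresses (44.0 CPM in males and 43.9 CPM in females). The other 8 adipocyte markers summed to 7.27 ± 8.26 CPM in males and to 2.59 ± 1.46 CPM in females (SD, n = 40 each), and the fat-cell hormone gene Adipoq was at 0 in 6 male and 13 female libraries. A female gamma library, replicate 7, held 2 counts of Xist against at least 1674 in each other female library, and no count of the Y-linked Ddx3y; the differences of Scd4, Scd1 and Scd2 between the sexes and of Scd4 between title ranges are given with and without it. Female mixed field replicate 10 held the lowest level of all 80 libraries for 4 of the 10 genes, namely Acacb, Me1, Scd1 and Scd2. In tissue pieces, fewer cells of a type and less RNA per cell cannot be told apart.

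**Figure D1:**
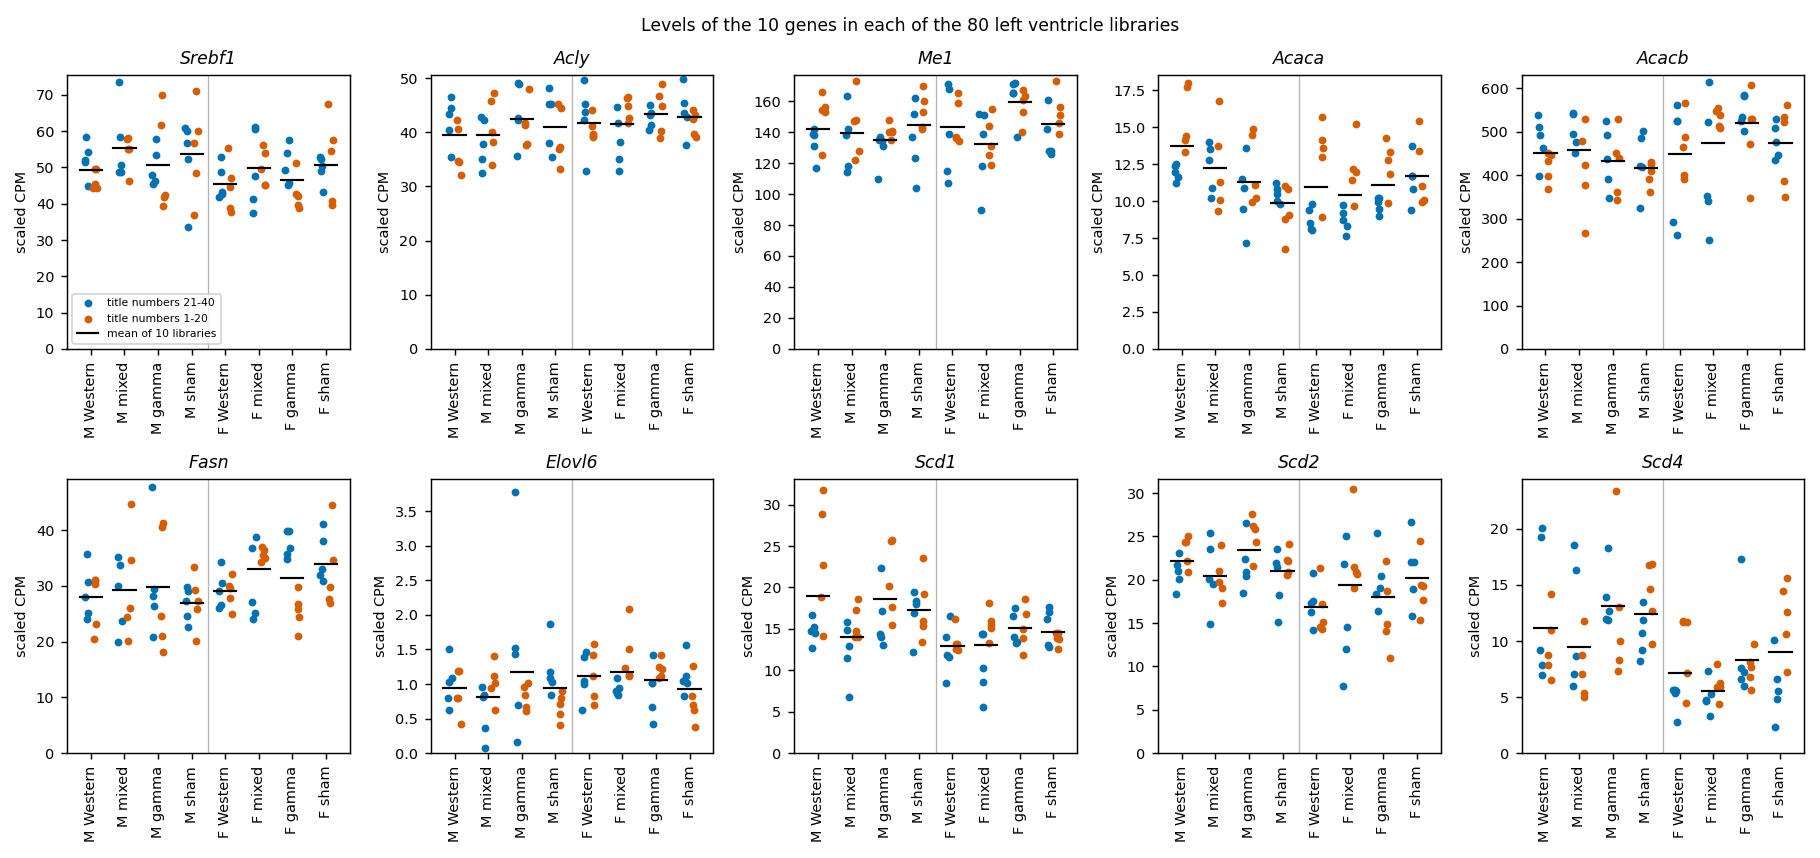
Level of each of the 10 genes in every library (y axis, scaled CPM from 0) by sex and condition (x axis), with points coloured by range of title numbers and a bar at the mean of 10 libraries. Acacb lies between 252 and 614 CPM and Elovl6 near 1 CPM, Scd4 is spread widely and lower in females, and Acaca in Western diet males lies just above the sham males.

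Acacb was the most abundant member per length. It averaged 460 ± 83.5 CPM (SD, n = 80), or 50.6 CPM per kb, and exceeded the next gene, Me1, in all 80 libraries. Its cytosolic relative Acaca averaged 11.4 ± 2.39 CPM, or 1.2 CPM per kb, so that the CPM of Acacb was between 23.6 and 69.9 times that of Acaca within a library. Me1 averaged 143 ± 18.2 CPM, or 34.2 CPM per kb. Srebf1 averaged 50.2 ± 8.27 CPM, or 11.6 CPM per kb, and Acly 41.5 ± 4.52 CPM, or 9.41 CPM per kb. Srebf1 was above Acly per length in 70 of 80 libraries.

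The desaturases and Fasn formed a band of close levels below these. Scd2, the isoform best known from brain, averaged 20.2 ± 4.07 CPM (3.70 CPM per kb). Scd1, the main isoform of liver and fat, averaged 15.6 ± 4.26 CPM (3.10 CPM per kb). Scd4, known in mice as an isoform expressed mainly in heart, averaged 9.52 ± 4.46 CPM (2.88 CPM per kb). Fasn averaged 30.2 ± 6.4 CPM, which over its long transcript was 2.80 CPM per kb. These neighbours lay within their spread of each other: Scd2 was above Scd1 in 64 libraries, Scd1 above Scd4 in 50, and Scd4 above Fasn in 38 of 80. Elovl6 was last at 1.02 ± 0.478 CPM (0.166 CPM per kb).

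Spread among libraries differed between the genes. The coefficient of variation of CPM was 10.9% for Acly, 12.7% for Me1, 46.8% for Scd4 and 46.9% for Elovl6. Elovl6 had 1 to 83 counts a library and Scd4 had 37 to 371. After the group means were taken into account, the fitted biological coefficient of variation was 37.2% for Scd4, against 20.4% for all genes in common.

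The Scd genes form a cluster on chromosome 19 (GRCm39), with Scd2 at chr19:44281613-44295303, Scd4 at chr19:44321531-44336783 and Scd1 at chr19:44382894-44399154. In the same build Fasn is at chr11:120696672-120715995, Acaca at chr11:84020476-84292477, Acacb at chr5:114284307-114388822 and Elovl6 at chr3:129326004-129432144. Srebf1 is at chr11:60089913-60113407, Me1 at chr9:86462646-86578104 and Acly at chr11:100367165-100440756, and all 10 genes are annotated as protein-coding. Canonical transcripts of the Scd genes share little sequence: 0.530% of the 100-base words of Scd4 also occur in Scd1, and none in Scd2 or Scd3. Scd2 shares 0.896% of its words with Scd1, and Scd1 shares 1.75% with Scd3, which averaged under 1 CPM here. Exons of Me1 and of the antisense gene Rwdd2a share 2146 bases, but Rwdd2a had 546 counts over all libraries against 188079 for Me1. Exons of Srebf1 and the antisense gene Rai1 share 114 bases, with 66442 counts for Srebf1 and 61375 for Rai1, and the sources used here do not state whether counting was by strand.

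Start regions were read from RefSeq (GRCm38.p6) as windows of 250 bases before and 50 bases after each gene start, which 8 of the 10 members had, in 11 windows. Windows for Scd1 and Scd2 were not used here. The windows were searched on both strands for TCACNCCAC (the core of a sterol response element) and the E-box CACGTG, the site form bound by the ChREBP, USF and clock factors. They were also searched for the CCAAT box, for GGGCGG, the GC box of Sp1-like factors, and for the TATA box as TATAAA. The sterol core was found in 0 of the 11 windows and in 1.24% of all 32851 windows, and CACGTG in 0 of 11 and 7.15% of all. CCAAT was found in 6 of the 11 windows, for 5 of 8 members, and in 37.4% of all windows; GGGCGG was found in 4 windows of 3 members, and in 35.7% of all. TATAAA was found in the window of Acacb and in 13.6% of all windows. A match is a string of letters, not a bound site, and a factor's site can differ from these letters. The 250 bases before the start are printed 5′ to 3′ on the gene's strand for Fasn and Acacb, whose levels moved together across libraries, and for Scd4, which differed most between the sexes. Capitals mark CCAAT or its reverse complement and TATAAA. In GRCm38.p6 the printed bases lie, for Fasn, at chr11:120824548-120824797 on the minus strand, for Acacb at chr5:114165268-114165517 and for Scd4 at chr19:44333076-44333325, both on the plus strand.
Fasn: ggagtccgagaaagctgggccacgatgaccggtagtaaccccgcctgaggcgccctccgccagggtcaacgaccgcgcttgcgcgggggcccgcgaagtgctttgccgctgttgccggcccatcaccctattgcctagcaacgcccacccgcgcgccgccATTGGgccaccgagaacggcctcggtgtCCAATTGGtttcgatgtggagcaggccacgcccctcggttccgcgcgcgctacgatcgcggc
Acacb: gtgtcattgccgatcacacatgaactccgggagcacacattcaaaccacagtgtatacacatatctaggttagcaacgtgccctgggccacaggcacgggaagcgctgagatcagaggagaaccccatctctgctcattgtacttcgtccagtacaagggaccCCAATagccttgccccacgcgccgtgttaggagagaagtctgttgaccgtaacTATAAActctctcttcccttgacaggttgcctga
Scd4: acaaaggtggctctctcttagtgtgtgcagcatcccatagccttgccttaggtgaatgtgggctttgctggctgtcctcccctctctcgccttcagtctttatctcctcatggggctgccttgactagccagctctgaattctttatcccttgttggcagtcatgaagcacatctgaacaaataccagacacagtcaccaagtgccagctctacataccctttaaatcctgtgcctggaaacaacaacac
Fasn carried 3 matches, at 90, 62 and 59 bases before the start, the last pair overlapping. Acacb carried CCAAT at 87 and TATAAA at 34 bases before the start. The Scd4 window held none of the 5 motifs.

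The design asks first whether the diet or the radiation moved these genes. None of the 10 passed the test in any of the 12 treatment comparisons (edgeR's quasi-likelihood test over 15879 genes, Benjamini-Hochberg adjusted p below 0.05). Few genes of any kind did: in males, 0.397% of all genes passed for the Western diet, 0.0693% for the mixed field and 0.176% for gamma radiation. In females 0.0189% passed for the Western diet, 0% for the mixed field and 0% for gamma radiation. For the mean of the sexes 0% passed in each of the 3 treatments. For the male effect minus the female effect, 0.447% passed for the Western diet, 0.0315% for the mixed field and 0% for gamma radiation. At an unadjusted p below 0.05, 1 member each was found for the Western diet and for the mixed field in each sex and 0 for gamma radiation in either sex. Of all 15879 genes, 2034 in males and 1174 in females were below it for the Western diet. For the mixed field 1297 and 1027 were, and for gamma radiation 863 and 1643. For the mean of the sexes there were 2, 2 and 0 members, beside 1806, 905 and 1732 of all genes. The male minus female effect gave 1 member in each treatment, beside 1468, 1429 and 854 of all genes. By adjusted p, DESeq2 called 1 member, Acaca for the Western diet in males, and limma voom 0. In that comparison DESeq2 called 146 of all genes and limma voom 52. The median log2 change of the 10 genes under the Western diet was 0.03 in males and -0.13 in females, beside -0.005 and 0.004 over all genes tested.

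Acaca, the cytosolic carboxylase, came nearest to a call. It lay between 11.2 and 18 CPM in Western diet males (median 12.9) and between 6.77 and 11.2 CPM in sham males (median 10.3). The groups touched at 11.2 without overlapping, the Western diet libraries being the higher. This was the only such set among the 60 made of 10 genes, 3 treatments and 2 sexes. The same count was not made over all genes, so how often such a set arises is not known here. The log2 change was 0.47 ± 0.12 (SE; 95% interval 0.23 to 0.72) with an edgeR adjusted p of 0.054. Against DESeq2's adjusted p of 0.0236, voom gave 0.063. With title numbers 21-40, Acaca was at 11.2, 11.6, 12, 12.4 and 12.5 CPM in Western diet males and at 9.8, 10, 10.5, 10.8 and 11.2 CPM in sham males. With title numbers 1-20, it was at 13.3, 14.1, 14.4, 17.7 and 18 CPM in Western diet males and at 6.77, 8.79, 9.07, 10.8 and 11 CPM in sham males. Within the title ranges the log2 change was 0.19 ± 0.12 (edgeR adjusted p = 0.945) for 21-40 and 0.75 ± 0.17 (edgeR adjusted p = 0.0173) for 1-20. With a term for the title range in each sex, the change over all libraries was 0.46 ± 0.11 (edgeR adjusted p = 0.0179). Of all genes, this comparison called 0 with 21-40, 467 with 1-20 and 194 with the term. In females Acaca lay between 8.06 and 15.7 CPM on the Western diet and between 9.41 and 15.4 CPM in sham, and the log2 change was -0.10 ± 0.12. The male effect minus the female effect was 0.57 ± 0.17 (edgeR adjusted p = 0.143), and 0.59 ± 0.15 (edgeR adjusted p = 0.0314) with the term for the title range. In the same comparison of male minus female effects, 8 of 14 circadian clock genes were called, 6 higher and 2 lower; their part in the Acaca values was not tested.

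After Acaca, the smallest unadjusted p was that of Scd4 under the mixed field (0.00268 for the mean of the sexes, edgeR). It lay between 5.05 and 18.6 CPM in mixed field males (median 7.88) and between 8.21 and 16.9 CPM in sham males (median 12.3). In females it lay between 3.30 and 7.92 CPM in the mixed field (median 5.56) and between 2.33 and 15.6 CPM in sham (median 8.66). Both sexes overlapped with sham. The log2 change for the mean of the sexes was -0.54 ± 0.18 (edgeR adjusted p = 0.567). Within the title ranges it was -0.07 ± 0.23 (edgeR adjusted p = 0.948) for 21-40 and -0.95 ± 0.19 (edgeR adjusted p = 0.0342) for 1-20. Of all genes, this comparison called 0 with 21-40 and 48 with 1-20.

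No other member was called for a treatment, although some 95% intervals of the log2 change left out 0. These were -0.51 to -0.01 for Scd2 on the Western diet in females (edgeR adjusted p = 0.665), -0.43 to -0.01 for Scd1 in the mixed field over both sexes (edgeR adjusted p = 0.874) and -0.46 to -0.01 for the male minus female gamma effect of Me1 (edgeR adjusted p = 0.923). For Srebf1 on the Western diet over both sexes the interval, -0.28 to 0, had an unadjusted p of 0.0493. Acaca in the mixed field had 0.07 to 0.55 in males (edgeR adjusted p = 0.486) and 0.13 to 0.82 for males minus females (edgeR adjusted p = 0.387). Fasn was at 28 ± 4.64 CPM in Western diet males and 26.9 ± 3.80 CPM in sham males, and at 29.1 ± 2.88 CPM in Western diet females and 33.8 ± 5.79 CPM in sham females (SD, n = 10 each). Its 95% intervals for the log2 change on the diet were -0.21 to 0.32 in males and -0.48 to 0.04 in females. Srebf1 was at 49.4 ± 4.74 CPM in Western diet males and 53.6 ± 11.3 CPM in sham males, with an interval of -0.32 to 0.08, and its interval in females was -0.37 to 0.03. Scd1, whose enzyme makes oleate from stearate, was at 19 ± 6.66 CPM in Western diet males and 17.2 ± 3.24 CPM in sham males, with an interval of -0.15 to 0.43. Me1 was at 159 ± 12.2 CPM in gamma females and 145 ± 15.6 CPM in sham females, with an interval of -0.02 to 0.30. Acly had the tightest intervals, -0.20 to 0.09 for the diet in males and -0.18 to 0.11 in females. Elovl6 had the widest, -0.62 to 0.62 and -0.32 to 0.83, which as fold changes reach 1.53 in males and 1.78 in females.

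**Figure D2:**
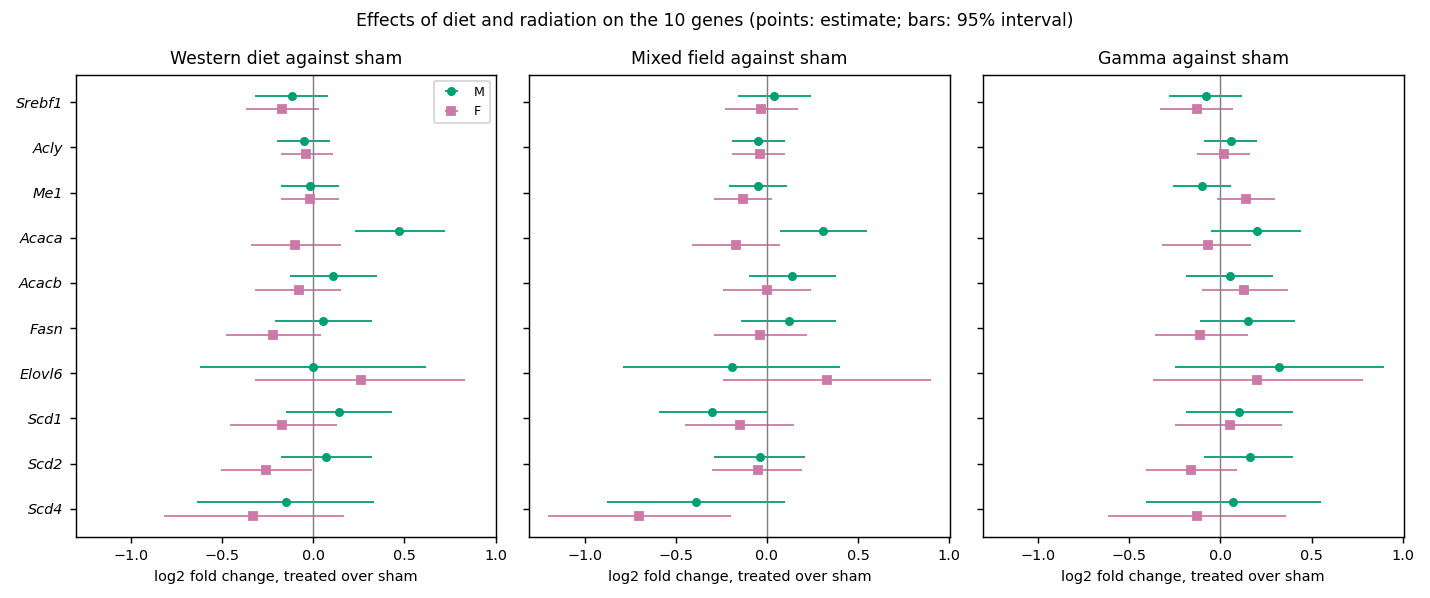
Log2 fold change of each gene against sham (x axis) for the Western diet, the mixed field and gamma radiation, in males (circles) and females (squares), with 95% intervals. Acaca on the Western diet in males (0.47) and Scd4 under the mixed field in females (-0.70) stand farthest from 0 relative to their intervals.

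Other genes of the pathway gave 1 call. Of 78 genes on 5 lists (lipogenic regulators, acetyl-CoA and NADPH supply, elongases and other desaturases, malonyl-CoA use with mitochondrial fatty acid synthesis, and glycerolipid assembly), 73 were tested. 1 of the 73 was called in any treatment comparison. It was Mid1ip1, which encodes a small protein that promotes polymerisation of acetyl-CoA carboxylase, with a male minus female Western diet effect of 0.91 ± 0.22 (edgeR adjusted p = 0.0274).

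Between the sexes, the members that differed were the desaturases. Over the 4 conditions Scd4, Scd1 and Scd2 were higher in males, 3 of the 10 genes, a share not far from the 23.3% of all genes called by the same test. No member was called lower in males.

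Scd4 lay between 5.05 and 23.4 CPM in males (median 10.8) and between 2.33 and 17.3 CPM in females (median 6.62). The ranges overlapped, and the highest female value belonged to the library nearly lacking Xist; the next female library was at 15.6 CPM. The log2 difference was 0.63 ± 0.12 (95% interval 0.39 to 0.88, edgeR adjusted p = 8.36e-05), and 0.68 ± 0.12 (edgeR adjusted p = 1.33e-05) without that library. Scd1 lay between 6.80 and 31.8 CPM in males (median 15.9) and between 5.53 and 18.6 CPM in females (median 13.9). Its log2 difference was 0.30 ± 0.07 (edgeR adjusted p = 0.00221). Scd2 lay between 14.9 and 27.6 CPM in males (median 21.7) and between 7.74 and 30.5 CPM in females (median 18.8), a log2 difference of 0.23 ± 0.06 (edgeR adjusted p = 0.00534). Without the library nearly lacking Xist, the differences were 0.31 ± 0.08 for Scd1 and 0.25 ± 0.06 for Scd2. Males were higher in each isoform, with much overlap between single libraries.

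The other 7 genes were not called over all libraries. Fasn was at 28.5 ± 6.85 CPM in males and 31.9 ± 5.50 CPM in females (SD, n = 40 each), a log2 difference of -0.16 ± 0.07 (edgeR adjusted p = 0.064). Acacb was at 440 ± 66.1 CPM in males and 480 ± 94.4 CPM in females (log2 difference -0.13 ± 0.06, edgeR adjusted p = 0.117). Srebf1 was at 52.2 ± 8.78 CPM in males and 48.1 ± 7.26 CPM in females (0.12 ± 0.05, edgeR adjusted p = 0.0767). Acaca, Elovl6, Me1 and Acly had edgeR adjusted p-values from 0.231 to 0.499. Within title ranges, each carboxylase was called in 1 range. The same test called 3140 genes of any kind with 21-40 and 5187 with 1-20, so such calls were common. Acaca was higher in males with 21-40, by 0.23 ± 0.06 (edgeR adjusted p = 0.00414), and had -0.02 ± 0.08 with 1-20 (edgeR adjusted p = 0.846). Acacb had -0.01 ± 0.09 with 21-40 (edgeR adjusted p = 0.953) and was lower in males with 1-20, at -0.23 ± 0.07 (edgeR adjusted p = 0.012). The difference between the ranges themselves was not called for Acaca (0.26 ± 0.11, edgeR adjusted p = 0.0685) or Acacb (0.22 ± 0.12, edgeR adjusted p = 0.155).

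Condition by condition the sex difference had the same sign for each of the 3 desaturases, but with 10 against 10 libraries few calls were made. Scd4 was higher in males by 0.64 ± 0.25 on the Western diet, 0.77 ± 0.25 in the mixed field, 0.67 ± 0.24 under gamma radiation and 0.46 ± 0.24 in sham (log2), none of them called. Without the library nearly lacking Xist, the gamma difference of Scd4 was 0.85 ± 0.24 (edgeR adjusted p = 0.026) and that of Scd2 was 0.45 ± 0.13 (edgeR adjusted p = 0.0242), both called, beside 0.38 ± 0.12 for Scd2 with it (edgeR adjusted p = 0.0561). Scd1 was called on the Western diet, at 0.55 ± 0.15 (edgeR adjusted p = 0.0200), with 0.10 ± 0.15 in the mixed field. Background rates were 4.65% of all genes on the Western diet, 1.73% in the mixed field, 5.56% under gamma radiation and 1.2% in sham. In sham, 0 of the 10 members were called and 1, Fasn, had an unadjusted p below 0.05, as had 1893 of the 15879 genes.

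The title ranges shared out these differences unevenly. For Scd4 the male minus female difference was 1.0 ± 0.16 (edgeR adjusted p = 2.14e-05) with title numbers 21-40 and 0.34 ± 0.14 (edgeR adjusted p = 0.0552) with 1-20. For Scd1 it was 0.18 ± 0.10 (edgeR adjusted p = 0.202) with 21-40 and 0.41 ± 0.08 (edgeR adjusted p = 0.000221) with 1-20. For Scd2 it was 0.17 ± 0.09 (edgeR adjusted p = 0.198) and 0.30 ± 0.07 (edgeR adjusted p = 0.00116). Tested directly, the sex difference of Scd4 differed between the ranges by 0.66 ± 0.24 (edgeR adjusted p = 0.0297), while those of Scd1 and Scd2 differed by -0.22 ± 0.14 and -0.12 ± 0.12 (edgeR adjusted p = 0.232 and 0.496), both not called. Without the library nearly lacking Xist, the Scd4 difference was 1.1 ± 0.16 with 21-40 (edgeR adjusted p = 1.98e-06), and its difference between the ranges was 0.78 ± 0.22 (edgeR adjusted p = 0.00583).

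The male tissue also held more of several marker lists. Of the 5 atrial markers, 5 were called higher in males, with a median log2 difference of 5.60, and of 6 tested adipocyte markers 4 were called higher and 1, Pnpla3, lower. Without the libraries above 10 CPM of the atrial gene Myl7, which left 60 libraries, among them all 40 female ones and, of the males with title numbers 1-20, only 3 of the mixed field, the log2 difference of Scd4 was 0.63 ± 0.15 (edgeR adjusted p = 0.00353). The same step gave 0.09 ± 0.08 (edgeR adjusted p = 0.550) for Scd1 and 0.11 ± 0.08 (edgeR adjusted p = 0.459) for Scd2. With all 9 adipocyte markers as a term, the difference was 0.54 ± 0.13 (edgeR adjusted p = 0.00113) for Scd4, 0.29 ± 0.08 (edgeR adjusted p = 0.00508) for Scd1 and 0.24 ± 0.07 (edgeR adjusted p = 0.00555) for Scd2. With the 8 adipocyte markers other than Lipe as a term, it was 0.61 ± 0.13 (edgeR adjusted p = 0.000384) for Scd4, 0.14 ± 0.06 (edgeR adjusted p = 0.125) for Scd1 and 0.18 ± 0.06 (edgeR adjusted p = 0.0448) for Scd2. The Myl7 and 8-marker settings were chosen after the data were seen. Fasn then lay at -0.25 ± 0.07 (edgeR adjusted p = 0.0128) without the Myl7 libraries and at -0.22 ± 0.07 (edgeR adjusted p = 0.0165) with the 8-marker term, lower in males.

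**Figure D3:**
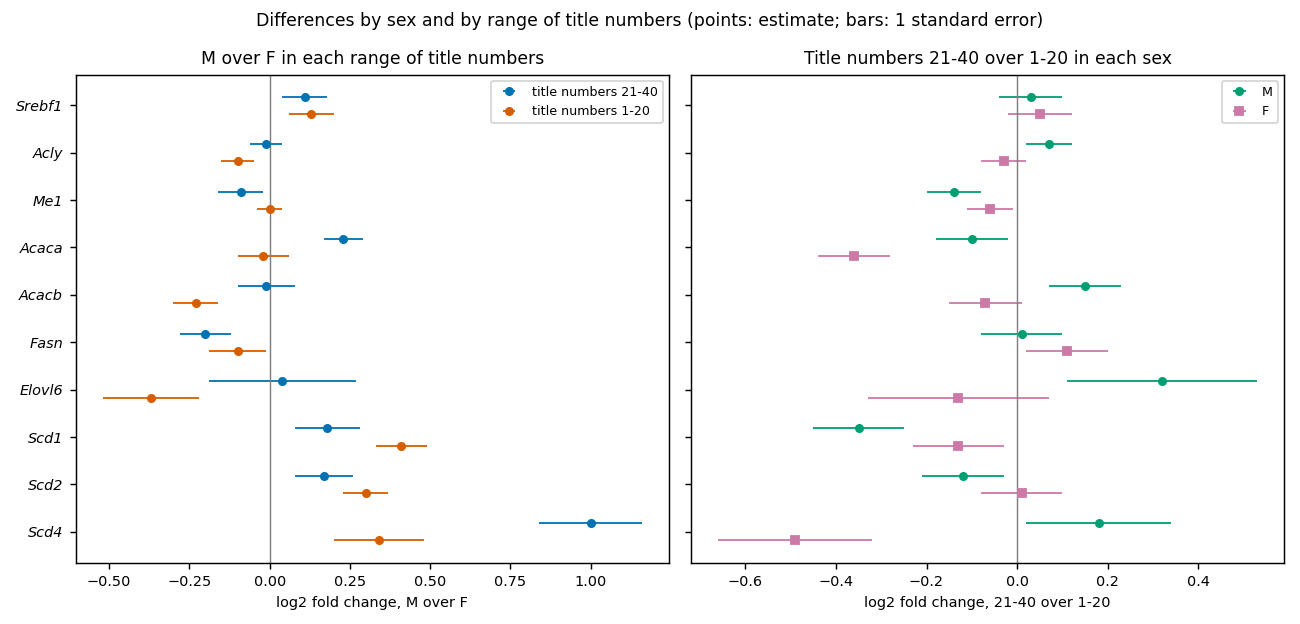
Left: log2 difference of males over females for each gene within each range of title numbers. Right: log2 difference of title numbers 21-40 over 1-20 in each sex, with bars of 1 standard error. The sex difference of Scd4 is 1.0 with title numbers 21-40 and 0.34 with 1-20, while those of Scd1 are 0.18 and 0.41.

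Between the title ranges themselves, the labels name no difference, yet many genes differed. Of all genes, 28.8% were called between 21-40 and 1-20 in males, 23.2% in females, and 25.6% for the male minus female difference of the 2 effects. Of the 10 members, 2 were called in each sex, all lower with 21-40, and 1 for the male minus female difference; each share is close to or below the background.

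In males Scd1 fell with title numbers 21-40, to between 6.80 and 22.3 CPM (median 14.8), against between 13.4 and 31.8 CPM with 1-20 (median 18.1). The log2 change was -0.35 ± 0.10 (edgeR adjusted p = 0.00333). In Western diet males Scd1 was at 12.7, 14.5, 14.7, 15.2 and 16.7 CPM with 21-40, against 14.2, 18.8, 22.7, 28.9 and 31.8 CPM with 1-20. In sham males it was at 12.2, 16.9, 18, 18.4 and 19.4 CPM with 21-40, against 13.4, 15.4, 16, 19.2 and 23.5 CPM with 1-20. The Western diet libraries with 1-20 were mostly above those with 21-40, while the sham sets overlapped throughout; in sham libraries alone the male change was -0.04 ± 0.14 (edgeR adjusted p = 0.914). Without the libraries above 10 CPM of Myl7 it was -0.38 ± 0.22 (edgeR adjusted p = 0.365). That value rests on mixed field males alone, 4 with 21-40 and 3 with 1-20, because no other male group kept a library with 1-20. Me1, which supplies NADPH, lay at 133 ± 15.8 CPM with 21-40 and 147 ± 14 CPM with 1-20 in males (SD, n = 20 each), a log2 change of -0.14 ± 0.06 (edgeR adjusted p = 0.0445). The call of Me1 was lost in 23 of 40 refits that each left out 1 male library. The change was -0.18 ± 0.10 (edgeR adjusted p = 0.371) in sham libraries alone and -0.09 ± 0.14 (edgeR adjusted p = 0.816) without the libraries above 10 CPM of Myl7, again from mixed field males alone.

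In females Acaca fell with 21-40, to between 7.66 and 13.7 CPM (median 9.44), against between 8.94 and 15.7 CPM with 1-20 (median 12.5). The log2 change was -0.36 ± 0.08 (edgeR adjusted p = 0.000264), and it was -0.07 ± 0.14 (edgeR adjusted p = 0.929) in sham libraries alone. Scd4 fell too, by 0.49 ± 0.17 on the log2 scale (edgeR adjusted p = 0.0288). In sham libraries alone its change was -1.04 ± 0.26, further from 0 but not called (edgeR adjusted p = 0.0763). In sham females Scd4 was at 2.33, 4.85, 5.55, 6.65 and 10.1 CPM with 21-40, against 7.24, 10.6, 12.6, 14.5 and 15.6 CPM with 1-20. In Western diet females it was at 2.79, 5.38, 5.54, 5.62 and 5.62 CPM with 21-40, against 4.47, 7.15, 11.7, 11.7 and 11.8 CPM with 1-20. The 21-40 libraries were mostly the lower in both sets, with overlap. Leaving out sham replicate 5, sham replicate 6 or Western diet replicate 9 each ended the female Scd4 call (adjusted p up to 0.0546, edgeR with the dispersion trend of all libraries); without the library nearly lacking Xist the change was -0.61 ± 0.16 (edgeR adjusted p = 0.00382). In males Scd4 changed by 0.18 ± 0.16 (not called), and the male minus female difference of the change is the 0.66 given with the sexes.

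Marker levels moved between the title ranges as well. In males the summed 6 fibroblast markers averaged 698 ± 121 CPM with 21-40 and 911 ± 170 CPM with 1-20 (SD, n = 20 each). The 8 adipocyte markers other than Lipe averaged 4.06 ± 7.10 CPM with 21-40 and 10.5 ± 8.24 CPM with 1-20 in males, and 2.45 ± 1.5 CPM with 21-40 and 2.73 ± 1.45 CPM with 1-20 in females. With all 9 markers as a term the male change of Scd1 was -0.35 ± 0.10 (edgeR adjusted p = 0.00357). With those 8 markers as a term, chosen after the data were seen, it was -0.09 ± 0.10 (edgeR adjusted p = 0.557) and that of Me1 -0.13 ± 0.07 (edgeR adjusted p = 0.165), while the female changes of Acaca and Scd4 were -0.35 ± 0.08 and -0.48 ± 0.17, both still called. In females the summed clock genes averaged 873 ± 134 CPM with 21-40 and 716 ± 128 CPM with 1-20; their part in the Acaca and Scd4 values was not tested.

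Scd1 rose with the 8 adipocyte markers other than Lipe over all libraries, but did not pass the test within females. Correlations of the members with marker lists of other tissues were not computed. Across the 80 libraries, Pearson's r between log2 CPM of Scd1 and of the 8 markers other than Lipe was 0.63 and Spearman's rho 0.56 (permutation test, 100000 resamples, two-sided, adjusted p = 0.0001 over the 10 members for each; the raw p of 1e-05 is the smallest the resampling can give). It was 0.58 without the 2 libraries farthest from the median, 0.71 in males and 0.33 in females (permutation adjusted p = 0.36). It was 0.45 with title numbers 21-40 and 0.72 with 1-20. Means of group, sex or title range were not subtracted for these correlations, and no split held sex and title range fixed at once. In males Scd1 averaged 15.1 CPM with 21-40 and 19.4 CPM with 1-20, and the 8 markers 4.06 and 10.5 CPM. The values over all libraries therefore include such differences between sets. Scd2 had r of 0.37 (rho 0.35; permutation adjusted p = 0.0059), with 0.45 in males and 0.23 in females. Scd4 had 0.25 (permutation adjusted p = 0.094) and Fasn 0.13 (permutation adjusted p = 0.35). With title numbers 21-40, Fasn had 0.50 (rho 0.39; permutation adjusted p = 0.0089 for r and 0.059 for rho) and Elovl6 0.45 (rho 0.38; permutation adjusted p = 0.03 for r and 0.059 for rho). With 1-20 these were -0.03 for Fasn and -0.32 for Elovl6 (permutation adjusted p = 0.96 and 0.12). Leaving out Lipe was chosen after the data were seen. With all 9 markers, which are mostly Lipe by level, Scd1 had r of 0.10, while Srebf1 had 0.44 (rho 0.44; permutation adjusted p = 0.0007) and Scd4 0.32 (rho 0.24; permutation adjusted p = 0.019 for r and 0.12 for rho). In females Acaca had -0.44 with the 9 markers (rho -0.41; permutation adjusted p = 0.043 for r and 0.057 for rho), beside 0.03 in males. For Srebf1 the value was 0.23 with 21-40 (permutation adjusted p = 0.70) and 0.57 with 1-20 (permutation adjusted p = 0.0016).

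**Figure D4:**
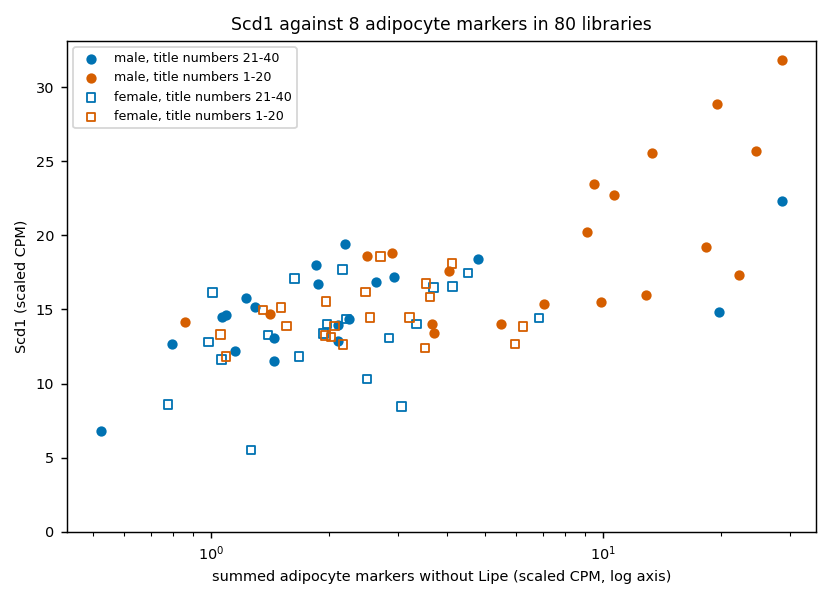
Scd1 level (y axis, scaled CPM) against the summed 8 adipocyte markers without Lipe (x axis, scaled CPM, log axis) in 80 libraries, by sex (filled circles male, open squares female) and range of title numbers. Marker sums run from 0.523 to 28.6 CPM, and the male libraries with the highest Scd1 lie to the right, among them most with title numbers 1-20.

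Across libraries, with group means subtracted, 14 of 45 pairs of members correlated (permutation test, 100000 resamples, two-sided, Benjamini-Hochberg over 45 pairs, adjusted p below 0.05), all 14 positively. The same test was not run on other genes, so no background share stands beside this count. Since group means but not title ranges were removed, the pairs were also computed within each range: 12 passed with 21-40 and 7 with 1-20. The pairs that passed overall and in both ranges with the same sign were 2, both with Fasn. Fasn and its regulator Srebf1 had r of 0.56 (rho 0.54, permutation adjusted p = 0.00015; 0.54 without the 2 libraries farthest from the median), with 0.44 in 21-40 and 0.63 in 1-20. Fasn and Acly, the supplier of its acetyl-CoA, had r of 0.42 (rho 0.36, permutation adjusted p = 0.00064), with 0.42 in each range. Fasn and Acacb had r of 0.46 (rho 0.41, permutation adjusted p = 0.00015), with 0.38 in 21-40 (permutation adjusted p = 0.054) and 0.55 in 1-20.

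Scd1 and Scd2 had the highest r, 0.59 (rho 0.44, permutation adjusted p = 0.00015), but it was 0.76 with 21-40 and 0.32 with 1-20 (permutation adjusted p = 0.17), and 0.46 without the 2 libraries farthest from the median. Acacb and Me1 had 0.49 overall (permutation adjusted p = 0.00027), with 0.69 in 21-40 and 0.24 in 1-20. Among the 21-40 females on the Western diet, Acacb was at 262, 293, 524, 526 and 563 CPM, in separate low and high sets. Scd4 passed in none of its 9 pairs, with r from -0.20 to 0.25 over all libraries; with 1-20 alone it had -0.46 with Scd1 (permutation adjusted p = 0.022) and 0.48 with Acacb (permutation adjusted p = 0.021), beside -0.17 and -0.05 with 21-40. Acaca and Srebf1 had 0.25 in 21-40 and -0.48 in 1-20 (permutation adjusted p = 0.021). Over all libraries, the desaturase with the largest sex difference was the member with no passing pair.

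**Figure D5:**
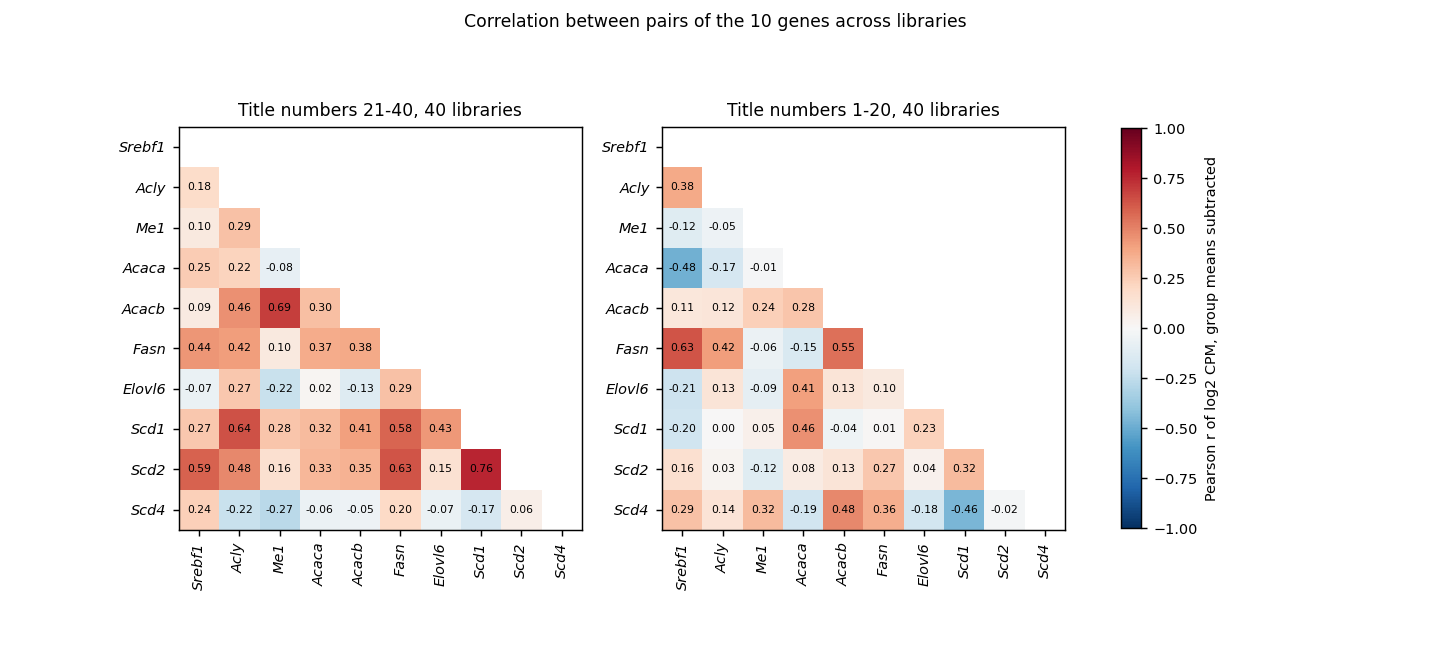
Pearson r between log2 CPM of each pair of genes with group means subtracted, for title numbers 21-40 (left) and 1-20 (right), 40 libraries each, with the value in each cell. Fasn with Srebf1 is positive in both panels (0.44 and 0.63), whereas Acaca with Srebf1 has 0.25 in the left panel and -0.48 in the right.

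The genes most like each member differed between members. They were the 3 tested genes with the highest r over 80 libraries, with group means subtracted and members and predicted genes left out. For Scd1 they included Dse (r = 0.70) and Lum (0.69), of which Lum encodes the matrix proteoglycan lumican, a fibroblast marker. For Scd2 they were Tgfbr2 (0.71), Ccdc80 and Slit3 (0.68 each), a receptor for TGF-beta and secreted or matrix proteins. For Acacb they were Palld (0.88), Hcfc1 (0.86) and Gtf3c1 (0.83). For Me1 they were Etfdh (0.85), an electron carrier enzyme of mitochondrial fatty acid oxidation, Tnni3k and Hsdl2 (0.84 each). For Fasn they were Ulk1 (0.70), the autophagy kinase, Phf12 (0.69) and Ube4b (0.68), and for Srebf1 Ephb4 (0.63), Man2b2 (0.57) and Rnf44 (0.56). For Acaca they were Nsd1 (0.79), Nbea and Macf1 (0.78 each), and for Acly Sec24b (0.65), Tmpo (0.63) and Ets1 (0.62). Elovl6 came nearest to Lpxn (0.61). Scd4 had no close partner: its highest r was 0.46, with Mir133a-2 and Slc41a3. These values were picked as the highest of many and carry no test.

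Genes of the 5 pathway lists were counted by the same tests. Between the sexes, 8 of 73 were called higher and 14 lower in males (30.1%, beside 23.3% of all genes). Lipogenic regulators gave 3 higher and 7 lower of 23. Among them Thra, a thyroid hormone receptor, was higher by 0.19 ± 0.05 and Mbtps1, the site-1 protease that releases sterol regulatory element binding proteins, was lower at -0.12 ± 0.03 (log2; edgeR adjusted p = 0.00336 and 0.000741). Insig1, which holds these proteins in the endoplasmic reticulum, was at -0.15 ± 0.04 (edgeR adjusted p = 0.00778). Glycerolipid assembly had 5 of 12 lower in males and 0 higher, with Lpin1 at -0.19 ± 0.05, Lpin2 at -0.22 ± 0.06 and Lpin3 at -0.31 ± 0.08, phosphatidate phosphatases that make diacylglycerol (edgeR adjusted p from 0.00288 to 0.00604). The list's median log2 difference was -0.08, beside -0.008 over all genes. Among the other elongases and desaturases 1 of 14 was called, Hacd3, lower in males. For the other 2 lists, 2 of 15 genes of acetyl-CoA and NADPH supply were higher (Idh2 and Me2) and 1 lower (Acss2), and 3 of 9 of malonyl-CoA use and mitochondrial fatty acid synthesis were higher (Cbr4, Acsf3 and Ndufab1).

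Between title ranges, 7 of 73 were higher and 17 lower with 21-40 in males (32.9%), and 12 higher and 6 lower in females (24.7%). Cpt1b, the muscle carnitine palmitoyltransferase that malonyl-CoA inhibits, was higher with 21-40 in males by 0.92 ± 0.18 (edgeR adjusted p = 3.27e-05). Mlxipl, which encodes the carbohydrate response factor ChREBP, was higher in males by 0.49 ± 0.09 (edgeR adjusted p = 3e-05). Mid1ip1 was lower in males, at -0.31 ± 0.08 (edgeR adjusted p = 0.00162), and higher in females, at 0.59 ± 0.08 (edgeR adjusted p = 2.76e-08). Dgat2, which makes triglyceride, likewise was lower in males at -0.25 ± 0.06 (edgeR adjusted p = 0.00067) and higher in females at 0.27 ± 0.06 (edgeR adjusted p = 0.000358), and the male minus female difference was called for both genes (edgeR adjusted p = 5.39e-09 for Mid1ip1 and 2.03e-06 for Dgat2).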

How the data were processed

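Poly-A selected libraries of left ventricular RNA were prepared, per the labels' protocols. The submitters' processing notes name FastQC 0.11.9, STAR 2.7.8a and the build GRCm39 (mm39), without giving how reads were counted, by which gene models or with which strand. The authors deposited raw counts per Ensembl gene, which were used as they stand: 56941 genes in 80 libraries, of which 56323 took a symbol from GENCODE M39. Totals of 13484776 to 22143504 counts set the precision, and mitochondrial genes held 23.6% of counts on average. The members and gene lists were chosen with earlier results of these data known.

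Counts were filtered (filterByExpr on the 8 groups), scaled by TMM (factors 0.868 to 1.14) and fitted with edgeR 4.0.16 in R 4.3.3, in 1 quasi-likelihood fit over all 80 libraries and 8 groups; p-values were adjusted (Benjamini-Hochberg) over 15879 genes, with calls at 0.05. Title range effects came from a fit with a further term per sex. SE is the standard error of the log2 change. Log2 CPM used a prior count of 0.5. Correlations used Python 3.11.15. All members are described. Of each pathway list up to 4 called genes of smallest p were named per comparison, and the 3 genes of highest r for each member, without predicted genes. For Scd1, 1 of these genes is not reported here. The scripts were tested on simulated data. Alternatives were DESeq2 1.42.0, its size factors, limma 3.58.1 (voom), no count filter, each title range, left-out libraries, and terms for title range, adipocyte markers or replicate block.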

Additional observations from a re-analysis of the deposited data

Results flagged for a closer look

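In 6 of 80 sets of 1 gene in 1 group, a library stood apart from its 10 by a gap to its neighbour above Dixon's 95% critical value; chance flags about 1 in 20 such sets. Scd4 in female gamma libraries was highest in replicate 7, at 17.3 CPM, the next being 9.76 CPM; this is the library nearly lacking Xist, and it exceeded all 39 other female libraries and 35 of 40 male libraries. In male gamma libraries replicate 10 was highest in Elovl6, at 3.78 CPM beside 1.52 CPM, and lowest in Me1, at 110 CPM beside 131 CPM. Elovl6 in sham males was highest in replicate 6, at 1.87 CPM beside 1.18 CPM. Srebf1 in mixed field males was highest in replicate 10, at 73.6 CPM beside 58.5 CPM. Acacb in female gamma libraries was lowest in replicate 4, at 348 CPM beside 471 CPM.

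The change of Scd4 between title numbers 21-40 and 1-20 differed between the sexes, by 0.66 on the log2 scale for males minus females (edgeR adjusted p = 0.0297; 0.78 and 0.00583 without the library nearly lacking Xist), and 25.6% of all genes passed the same test.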

How the results depend on the processing

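The number of members called for the Western diet in males, 0 in the main test, was 1 (Acaca) in some settings. These were title numbers 1-20 only, a title range term in each sex, and DESeq2. Calls among all genes, 63 in the main test, were 467, 194 and 146 in these settings, and 0 with 21-40 only. For the male minus female effect of the diet, 1 member was called with the title range term, beside 154 of all genes (71 in the main test). For the mixed field over both sexes 1 (Scd4) was called with 1-20 only, beside 48 of all genes (0 in the main test). Of the 3 called between the sexes, 0 were called in sham libraries alone, where Scd4 was at 0.46, Scd1 at 0.24 and Scd2 at 0.06. Of the 2 called between title ranges in males, 1 was called with no count filter and 0 with the adipocyte term without Lipe, without libraries above 10 CPM of Myl7, or in sham libraries alone (5 against 5). In these last 3 settings Scd1 was at -0.09, -0.38 and -0.04, beside -0.35 in the main test. Me1 was at -0.13, -0.09 and -0.18, beside -0.14, so a lost call did not always go with a smaller change. Of the 2 in females, 0 were called in sham libraries alone, where Scd4 was at -1.04 and Acaca at -0.07. Leaving out 1 library at a time gave 3 to 4 members called between the sexes and 1 to 2 members called between title ranges in each sex; these refits kept the dispersion trend of the full fit. Members correlated with the 9 adipocyte markers numbered 2 (Srebf1 and Scd4); they were 1 with 1-20 only or without the 2 farthest libraries (Srebf1 each time), 1 in females only (Acaca, negatively) and 0 with 21-40 only. Without Lipe they were 2 over all (Scd1 and Scd2), 0 in females, 1 with 1-20 (Scd1) and 3 with 21-40 (Fasn, Scd1 and Elovl6). Correlated pairs numbered 14; they were 7 with 1-20 only and 22 on unscaled CPM. Against r with the 9 markers over all libraries, 0.32 for Scd4 and -0.10 for Elovl6, the sign turned for Scd4 in females (-0.03) and for Elovl6 with the 8 markers in 21-40 (0.45); with the 8 markers Elovl6 had 0.10 over all libraries. Some values that passed in neither setting also changed sign, such as Scd1 in females (-0.37 beside 0.10). The title range term makes the sex difference that of 1-20, where Scd4 was at 0.32. The title number as a replicate block across the sexes gave 0.64 ± 0.12 for Scd4 and kept the 3 sex calls. Of 40 same-numbered pairs of a male and a female library, 4 correlated above 0.1, with a median r of 0.017. Of the 40 male libraries, 1 correlated best with the female library of its own number. No p-value was computed for these values, and the labels do not say whether same-numbered libraries share anything. No library exceeded 3 times the median sum of the 9 adipocyte markers, which is mostly Lipe, so that alternative gave no value. It says little about attached fat, as the 8 markers without Lipe had a median of 2.48 CPM and reached 28.6 CPM. Causes were not tested.

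These are bulk counts from 5 libraries per group and title range, and changes in low genes such as Elovl6 were not detectable at this depth unless large.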
